A study of Mus musculus with 6 samples.

Results

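Prg4, Gata6, Timd4, Cxcl13, Garnl3, Vsig4, Cd93 and Rarb are genes known from large peritoneal macrophages, and their levels were followed here in myeloid cells of the spleen. They were chosen by measured values of these same arrays, namely the rise of Prg4 with rapamycin together with genes that depend on the transcription factor Gata6. Their differences between the groups are therefore given as a description, with no test. Each of the 8 has 1 probe set with a single gene symbol, out of 19938 genes measured. The mean over all arrays lay above a brightness threshold of log2 4.72 for 6 members. The other 2, Vsig4 and Rarb, lay below it and are kept here as dim.

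RNA came from cells labelled as splenic myeloid-derived suppressor cells, immature myeloid cells that restrain T cells. They were drawn from spleen with magnetic beads against CD11b (Itgam), an integrin of neutrophils, monocytes and macrophages, so every CD11b-positive cell type could be present. All mice were B6D2F1/J recipients, lethally irradiated and given T-cell-depleted B6 marrow, and were sampled at day 10. The labels mention B6 spleen cells in the graft of some mice without naming them, and give no age and no share of donor or host cells. The PBS group held 3 mice given vehicle injections, and the rapamycin group held 3 mice given 1.5 mg/kg of the mTOR inhibitor on alternate days. Each mouse had 1 array, and the array number limits the precision. In bulk RNA, more cells of a type and more RNA per cell cannot be told apart. Itgam stood between 12.22 and 12.48 (log2) on all 6 arrays.

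Large peritoneal macrophages are long-lived resident cells of the peritoneal cavity. Retinoic acid made by the omentum and mesothelium induces Gata6 in them, and Gata6 maintains much of their particular gene set. Small peritoneal macrophages, by contrast, come from blood monocytes and carry more MHC class II. Prg4 encodes lubricin, a mucin-like secreted glycoprotein best known for lubricating joints. Timd4, Vsig4 and Cd93 are surface receptors, Cxcl13 is a chemokine and Rarb is a retinoic acid receptor.

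The promoters of the members show what a regulator could read near the start of transcription. RefSeq (GRCm38.p6) start regions matched 5 of the 8 members, with 6 starts in all, and the 250 bases before each start were searched. Unmatched were Prg4, Gata6 and Cd93. The look-up by gene left out a chromosome that the count over all regions kept. A gene on that chromosome was therefore unmatched whether or not it has a RefSeq start. Which of the unmatched genes lie there is not given here, so their lack of a match says nothing about their promoters. The Rarb, Timd4 and Cxcl13 stretches are shown, the first for its retinoic acid element and the others for the rapamycin levels below. Capitals mark a direct repeat, on either strand, of half-sites with 5 bases between them. The half-sites searched, in any pair, were AGGTCA and its variant AGTTCA, and the same letters with G first, which are GGGTCA and its variant GGTTCA.
Rarb (chr14:16575477-16575726, minus strand): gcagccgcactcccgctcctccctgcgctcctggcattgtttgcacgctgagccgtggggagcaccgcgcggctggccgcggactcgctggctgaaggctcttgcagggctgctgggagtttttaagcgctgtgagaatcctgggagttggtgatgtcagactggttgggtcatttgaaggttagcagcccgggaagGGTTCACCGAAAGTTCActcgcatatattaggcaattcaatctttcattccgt
Timd4 (chr11:46810549-46810798, plus strand): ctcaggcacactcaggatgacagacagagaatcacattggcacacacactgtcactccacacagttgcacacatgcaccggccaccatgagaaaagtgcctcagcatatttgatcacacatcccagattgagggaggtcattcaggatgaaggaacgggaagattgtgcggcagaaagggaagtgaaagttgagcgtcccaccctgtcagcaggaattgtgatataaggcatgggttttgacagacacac
Cxcl13 (chr5:95956689-95956938, plus strand): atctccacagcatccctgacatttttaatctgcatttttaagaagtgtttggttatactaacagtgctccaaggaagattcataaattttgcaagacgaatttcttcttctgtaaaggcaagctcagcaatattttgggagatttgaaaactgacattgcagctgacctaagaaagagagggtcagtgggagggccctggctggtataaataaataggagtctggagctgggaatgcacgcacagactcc
The repeat in the Rarb stretch ends 36 bases before the start. The same search found such a repeat in 29 of 32851 RefSeq start regions of that length (0.0883%). A GATA hexamer, which is AGATAA or its variant AGATAG, or with T first TGATAA or its variant TGATAG, on either strand, was in 0 of the 6 member regions and in 26.5% of all regions. A match is only a match of letters.

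Prg4 had the largest difference of the members. The PBS mice stood at 6.99, 7.69 and 6.81 (log2, replicates 1 to 3) and the rapamycin mice at 9.74, 10.27 and 10.60. The groups were 2.05 log2 units apart at their nearest points, and each spanned at most 0.88. The group means were 7.16 ± 0.46 and 10.20 ± 0.44 (SD, n = 3 each), a log2 difference of 3.04, or 8.23-fold.

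The 2 transcription factors showed small or no differences. Gata6, the factor that defines the peritoneal program, read 5.36, 5.24 and 5.31 with PBS and 5.60, 5.47 and 5.50 with rapamycin. All rapamycin mice lay above all PBS mice, but the gap was 0.11 and the mean difference 0.22 (1.17-fold). The Gata6 level was low, with a mean of 5.41 over the 6 arrays. That is above the brightness threshold but under the 50th percentile of probe sets with a single symbol (log2 5.71). Rarb was dim, at 4.50 on all 3 PBS arrays and on rapamycin arrays 2 and 3, and at 4.40 on rapamycin array 1. The value 4.500485 was shared by 5 arrays, so Rarb gave no measurable difference (-0.03).

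Among the receptors, Timd4 and Cd93 stood higher with rapamycin and Vsig4 did not separate the groups. Timd4 (Tim-4), which binds phosphatidylserine on dying cells, read 5.23, 5.60 and 5.63 with PBS and 5.75, 6.43 and 6.40 with rapamycin. Its means were 5.49 ± 0.22 and 6.19 ± 0.38 (SD, n = 3 each), 1.63-fold apart, and rapamycin mouse 1 lay only 0.13 above the highest PBS mouse. Cd93, a glycoprotein of phagocytes, endothelium and progenitors, was tight with PBS at 8.03, 7.94 and 8.03. With rapamycin it spread over 8.69, 8.23 and 8.89, a mean difference of 0.60 (1.52-fold).

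Vsig4, the complement receptor CRIg of resident macrophages, divided the mice in another way. PBS mouse 2 (5.04) and rapamycin mice 2 and 3 (5.10 and 5.24) were high, and PBS mice 1 and 3 (4.21 and 4.28) and rapamycin mouse 1 (4.15) were low. The groups overlapped, and the mean difference of 0.32 was smaller than the SD of either group (0.46 and 0.59). That difference depended on which mice entered. It grew to 0.66 when rapamycin replicate 1 was left out and to 0.58 when PBS replicate 2 was. It shrank to 0.17 or 0.21 when PBS replicate 1 or 3 was dropped, to 0.18 or 0.12 when rapamycin replicate 2 or 3 was, and to 0.15 with array weights.

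Cxcl13, which attracts B cells through Cxcr5, was raised mainly in a single mouse. Rapamycin mouse 1 read 6.96, and the other 5 mice lay between 4.30 and 5.21. PBS values were 4.30, 5.02 and 4.32, and the remaining rapamycin values were 4.90 and 5.21, so the groups overlapped. The mean difference of 1.15 fell to 0.51 without rapamycin replicate 1. The PBS mean of Cxcl13 (4.55 ± 0.41, SD, n = 3) was itself under the brightness threshold, so the gene passed it through the rapamycin arrays.

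Garnl3, which carries a domain of GTPase activators for Rap, read 5.90, 5.63 and 5.77 with PBS and 5.98, 6.14 and 5.90 with rapamycin. PBS mouse 1 and rapamycin mouse 3 shared the exact value 5.895351, so the groups touched, and the mean difference was 0.24 (1.18-fold).

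**Figure D1:**
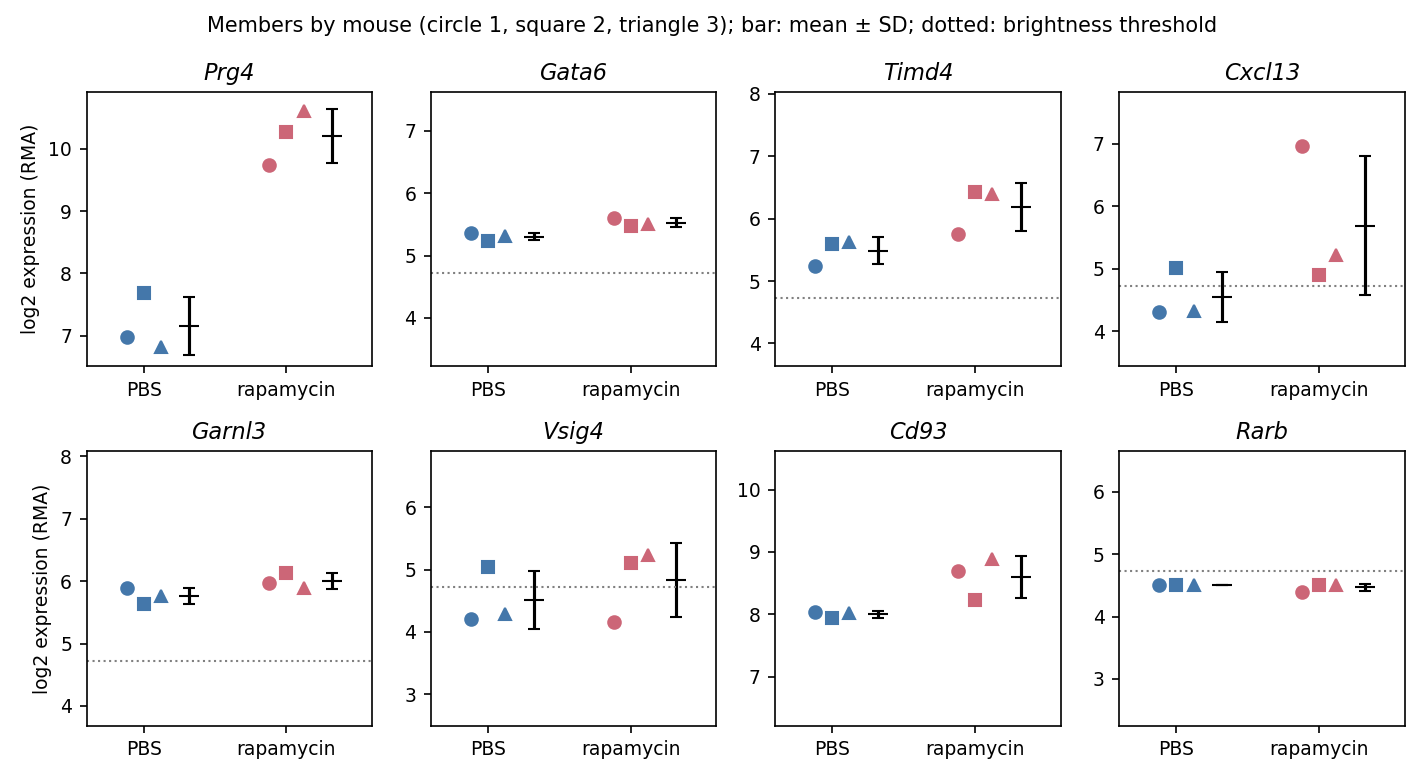
Log2 expression of the 8 members in each mouse (circle, square and triangle for replicates 1, 2 and 3; blue PBS, red rapamycin), with mean ± SD beside each group, a dotted brightness threshold, and axes of equal height that start at different levels. Prg4 is separated by 2.05 log2 units, Cxcl13 rests on rapamycin mouse 1, and Rarb is flat.

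The members thus did not behave alike. All 3 rapamycin arrays lay above all 3 PBS arrays for 4 of the 8 (Prg4, Gata6, Timd4 and Cd93), where 12.6% of the 13965 genes tested did so and 19.4% had all 3 rapamycin arrays below. Since this contrast chose the members, nothing is read from that count. The median difference over the 8 was 0.46 on the log2 scale, and over all genes tested it was -0.02. Without PBS replicate 2 the median of the 8 was 0.58. The mice also ranked differently by gene. Rapamycin mouse 1 was the lowest of its group for Prg4, Timd4, Vsig4 and Rarb and the highest for Gata6 and Cxcl13. PBS mouse 2 was the highest of its group for Prg4, Cxcl13 and Vsig4 and the lowest for Gata6, Garnl3 and Cd93.

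**Figure D2:**
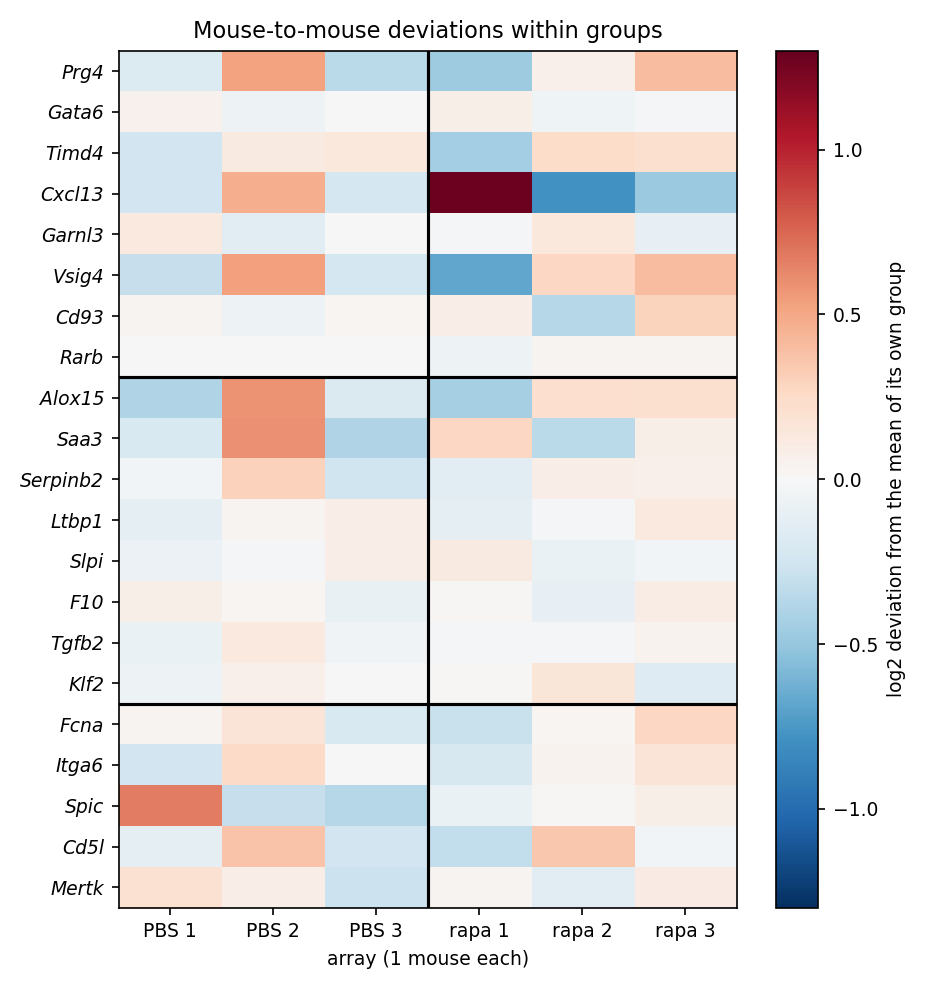
Deviation of each mouse from the mean of its own group (log2, colour scale) for the 8 members (top block), the 8 other large peritoneal macrophage genes that passed the test (middle) and 5 macrophage genes chosen after their values were seen (bottom). PBS mouse 2 is high and rapamycin mouse 1 low for Prg4, Vsig4, Alox15, Fcna, Itga6 and Cd5l, and Cxcl13 is high in rapamycin mouse 1.

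Other genes of large peritoneal macrophages were then compared, from a list that holds none of the 8 members. Alox15 and Saa3 were already known to be higher in these arrays when the list was drawn up, so their direction is not independent evidence. Alox15, a lipoxygenase of resident peritoneal macrophages, rose by 2.47 ± 0.27 (log2, SE), 5.54-fold, and the acute-phase protein Saa3 by 2.29 ± 0.26. Serpinb2, a plasminogen activator inhibitor, rose by 1.07 ± 0.14, 2.10-fold, from PBS values of 6.73, 7.07 and 6.51 to 7.70, 7.93 and 7.91. Limma's adjusted p was 0.00655 for Alox15, 0.00726 for Saa3 and 0.00820 for Serpinb2.

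Smaller rises were seen for 4 more. Ltbp1, which binds latent TGF-beta, rose by 0.55 ± 0.08 (limma adjusted p 0.0107), with PBS mice at 5.45 to 5.67 and rapamycin mice at 6.01 to 6.26. Tgfb2, one of the TGF-beta ligands that such proteins store, was called higher at 0.28 ± 0.07 (adjusted p 0.0375 with limma). Its PBS mean was itself under the brightness threshold, so Tgfb2 was tested only through its rapamycin arrays. Its call was lost with no filter (limma adjusted p 0.0506) and with array weights (0.0545). The protease inhibitor Slpi, also made by neutrophils, rose by 0.48 ± 0.07, and the coagulation factor F10 by 0.41 ± 0.07. The transcription factor Klf2 fell by 0.44 ± 0.08 (limma adjusted p 0.0220).

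At an unadjusted p under 0.05 with limma, 9 genes of the list were higher and 2 lower. In all, 7 of the 23 genes tested in the list rose, 1 fell and 15 did not pass, at a list median of 0.07. The 7 hold Alox15 and Saa3, known beforehand to be higher, and Tgfb2, tested only through its rapamycin arrays. The count is therefore a description. Over all 13965 genes tested, limma called 4.42% higher and 6.92% lower. These shares are for adjusted p. Unadjusted counts, here and below, are given without the share over all genes, so nothing is read from them. The integrin Itga6 differed by 0.46 (adjusted p 0.0776 with limma) and the adhesion molecule Icam2 by 0.25 (0.0726). Coagulation factor F5 differed by -0.09, the opsonin Fcna by 0.24 and the macrophage glycoprotein Adgre1 by 0.22, all short of the threshold. Arhgap29 was too dim to test, and Selp and Naip1 were not analysed here. Without PBS replicate 2, only Alox15, Saa3 and Serpinb2 of the 7 were still called. Without PBS replicate 3 or rapamycin replicate 1, F10 and Tgfb2 were lost, and Tgfb2 was lost whichever array was left out. Klf2 was lost without PBS replicate 1, 2 or 3 or rapamycin replicate 1. The tetraspanin Cd9 differed by -0.37 (limma adjusted p 0.0541) and passed under several other settings.

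**Figure D3:**
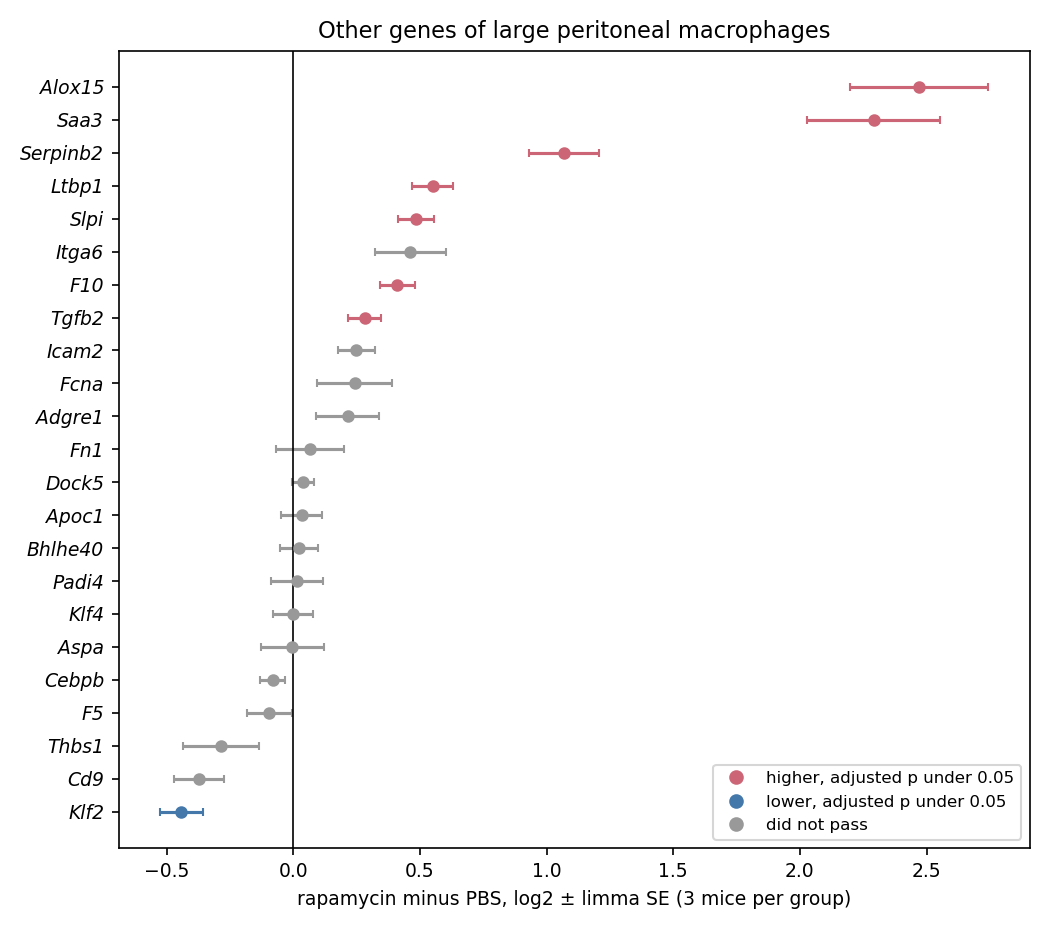
Rapamycin minus PBS (log2 ± limma SE, 3 mice per group) for the 23 tested genes of large peritoneal macrophages that are not members. Alox15, Saa3 and Serpinb2 lie above 1, 4 more pass with smaller differences, and Klf2 passes on the negative side.

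The start regions of the 8 called genes were searched for the same GATA hexamers, since Gata6 belongs to the factors that bind them. RefSeq matched 7 of them, with 9 starts, and 3 of the 9 regions held a hexamer, where 26.5% of all regions did. Alox15 was unmatched. The Serpinb2 stretch (the second of its starts) and the Saa3 stretch are shown, with the hexamer in capitals as it reads on the printed strand.
Serpinb2 (chr1:107511260-107511509, plus strand): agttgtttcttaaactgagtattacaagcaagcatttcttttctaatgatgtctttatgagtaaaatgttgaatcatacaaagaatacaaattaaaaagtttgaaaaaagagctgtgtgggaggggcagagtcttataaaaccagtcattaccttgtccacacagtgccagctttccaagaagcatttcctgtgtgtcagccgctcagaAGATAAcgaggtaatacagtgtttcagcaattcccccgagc
Saa3 (chr7:46715677-46715926, minus strand): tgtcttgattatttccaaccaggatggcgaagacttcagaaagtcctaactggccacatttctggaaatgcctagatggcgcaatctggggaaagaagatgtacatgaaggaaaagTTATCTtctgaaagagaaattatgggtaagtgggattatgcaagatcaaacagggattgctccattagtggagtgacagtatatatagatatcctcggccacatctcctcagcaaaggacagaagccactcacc
The third was Slpi, with its hexamer 11 bases before the start.

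Genes of small, monocyte-derived peritoneal macrophages moved in both directions. Of 12 tested, 3 rose and 2 fell with limma (7 higher and 3 lower at an unadjusted p under 0.05), at a median of 0.21. The integrin Itgax rose by 0.82 ± 0.18 (SE), the secreted protein Retnla by 0.58 ± 0.13 and H2-Eb1, of MHC class II, by 0.54 ± 0.11. The mannose receptor Mrc1 fell by 1.04 ± 0.14 and the monocyte chemokine receptor Ccr2 by 0.34 ± 0.08. H2-Aa, H2-Ab1 and Cd74 differed by 0.21, 0.27 and 0.21 and did not pass. For each, all 3 rapamycin arrays lay above all 3 PBS arrays, as for 12.6% of all genes tested. Ciita differed by 0.55, and Irf4, Lyve1 and Clec10a by -0.15, -0.29 and -0.01, also without passing. All 5 calls were lost when PBS replicate 2 was dropped, and likewise for rapamycin replicate 1. Ccr2 was lost whichever array was left out. With all arrays but no brightness filter, Ccr2 (limma adjusted p 0.0584) and Retnla (0.0519) did not pass. Without PBS replicate 3, Mrc1 alone was called, without PBS replicate 1 Retnla and Ccr2 were lost, and without rapamycin replicate 2 Itgax, H2-Eb1 and Ccr2 were lost.

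Macrophage genes in general rose in part. Of 13 tested, 3 rose and 0 fell (4 and 0 at an unadjusted p under 0.05), at a median of 0.12. The lipopolysaccharide coreceptor Cd14 rose by 1.15 ± 0.10 (SE, limma adjusted p 0.00431) and the lysosomal protein Cd68 by 0.83 ± 0.09 (adjusted p 0.00655 with limma). Tlr4 rose by 0.39 ± 0.10. The growth factor receptor Csf1r and lysozyme, Lyz2, differed by 0.13 and 0.09 and did not pass. Cd68 and Tlr4 were lost without PBS replicate 2, and Tlr4 was called in only 1 of the 6 fits that left out an array. Tlr4 did not pass with no brightness filter either (limma adjusted p 0.0659).

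Resident macrophages of the spleen itself share Timd4 and Vsig4 in part. Of their 16 genes tested, 2 rose and 1 fell (4 and 2 at an unadjusted p under 0.05, limma), at a median of 0.06. Heme oxygenase Hmox1 rose by 0.72 ± 0.14 (SE) and transferrin, Trf, by 0.69 ± 0.10, and the iron exporter Slc40a1 fell by 0.38 ± 0.05. Spic, the transcription factor of red pulp macrophages, read 8.89, 7.93 and 7.86 with PBS and 8.43, 8.54 and 8.60 with rapamycin, so PBS mouse 1 lay above every rapamycin mouse. Spic was called only without PBS replicate 1, at 0.63 (adjusted p 0.0264 with limma). Marco and Siglec1, of marginal zone macrophages, differed by -0.02 and -0.27 and did not pass. All 3 calls were lost without PBS replicate 2, and Hmox1 and Trf without PBS replicate 3. Hmox1 was also lost when any rapamycin array was left out. How far these cells carry the Timd4 and Vsig4 signal was not tested.

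The retinoic acid pathway, which lies upstream of Gata6, showed 1 gene higher and 0 lower of 12 tested (2 and 2 at an unadjusted p under 0.05, limma), at a median of -0.07. Rara, the main retinoic acid receptor of myeloid cells, rose by 0.27 ± 0.05 (SE, limma adjusted p 0.0230), and kept its call only where rapamycin replicate 3 was the array dropped. The enzymes Aldh1a1 and Aldh1a2, which make retinoic acid, were too dim to test, and so was Cyp26a1, which breaks it down. The retinoic acid target Tgm2 differed by 0.56 (adjusted p 0.109 with limma) and passed without rapamycin replicate 3, at 0.76.

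Of the other GATA factors and their partners, 0 of 7 tested rose and 1 fell (0 and 1 at an unadjusted p under 0.05). Lmo2, an adaptor of GATA complexes in blood progenitors, went from 9.48, 9.54 and 9.47 to 9.05, 8.97 and 8.93, a change of -0.51 ± 0.05 (SE, limma adjusted p 0.00513) that held with any array left out. Gata1, Gata2, Gata4 and Gata5 differed by between -0.08 and 0.15 and did not pass, and Gata3 was too dim to test.

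In the uptake of dying cells, the process that Timd4 serves, 1 of 20 genes tested rose and 1 fell, at a median of -0.00057. At an unadjusted p under 0.05 with limma, 2 were higher and 4 lower. The scavenger receptor Cd36 rose by 1.21 ± 0.25 (SE) and the integrin chain Itgb3 fell by 0.46 ± 0.10. Cd36 was called only without rapamycin replicate 2, and Itgb3 only without PBS replicate 1, in the fits that left out an array. The receptor kinase Mertk differed by 0.40 (limma adjusted p 0.0913) and Axl by 0.04. The Timd4 relatives Havcr1 and Timd2 were too dim to test, and Havcr2 (Tim-3) differed by 0.36, short of the threshold.

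Partners and relatives of the members gave 0 calls among 18 genes tested (1 higher and 2 lower at an unadjusted p under 0.05, limma). Cd44 and Tlr2, which bind lubricin, differed by 0.09 and 0.22. Cxcr5, the receptor of Cxcl13, was too dim to test. Itgb2, the partner of Itgam in the complement receptor CR3, differed by -0.02, and thrombomodulin, Thbd, a relative of Cd93, by 0.10. The Rap regulators Rap1gap and Sipa1 differed by 0.02 and -0.16. Other settings gave calls in both directions. With rapamycin replicate 3 left out, Tlr2 passed at 0.31. With quantile normalization again, Itgam passed as lower at -0.24 (limma adjusted p 0.0358) and the GTPase Rap1b at -0.22 (0.0303), and with array medians aligned Sipa1 did at -0.19 (0.0418).

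Other cells that make single members were followed by their own markers, on each array as the mean log2 level of a list. Mesothelium, which also makes Prg4, stood between 4.95 and 5.03 with PBS and 4.90 and 4.97 with rapamycin. Of its 13 measured genes 6 were too dim to test and 0 of 7 passed limma (0 higher and 1 lower unadjusted). The keratin Krt8 was its brightest, at -0.37 (adjusted p 0.0503), and passed as lower under several other settings. Wt1, Msln and Upk3b differed by -0.14, 0.07 and 0.07. Fibroblast genes stood between 5.27 and 5.35 with PBS and 5.25 and 5.34 with rapamycin, with 0 of 9 called and 0 at an unadjusted p under 0.05 (limma). The brightest of them, Acta2, differed by -0.06.

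Follicular dendritic cells, the classical source of Cxcl13 in spleen, had 0 of 5 tested genes called (0 higher and 2 lower unadjusted, limma). Their mean level was 5.89 to 5.98 with PBS and 5.80 to 5.93 with rapamycin, and their brightest gene, Bst1, differed by -0.17. Their defining receptor Cr2 was too dim to test. Endothelium, which also expresses Cd93, had 0 of 9 called (1 higher and 1 lower unadjusted), with Egfl7 the brightest at -0.21 and Cdh5 at 0.03. Its mean level was 4.99 to 5.06 with PBS, and its highest rapamycin array was also at 5.06.

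Of 11 measured genes of the B lineage, whose precursors carry Cd93, 8 were too dim to test. Cd79b fell by 0.32 ± 0.06 (SE, limma adjusted p 0.0191), and was lost without PBS replicate 1, 2 or 3 or rapamycin replicate 1. Neutrophil and monocyte genes averaged 11.78 to 11.86 with PBS and 11.61 to 11.79 with rapamycin. Of 11 tested, 0 rose and 2 fell (0 and 2 unadjusted): Ccr2, above, and Ace, a gene of nonclassical monocytes, by 0.57 ± 0.13. Ace was called only without PBS replicate 1. S100a9 differed by -0.07 and Ly6g by -0.31, with rapamycin mouse 3 the lowest at 11.66. The share of these cells in the member differences was not tested.

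**Figure D4:**
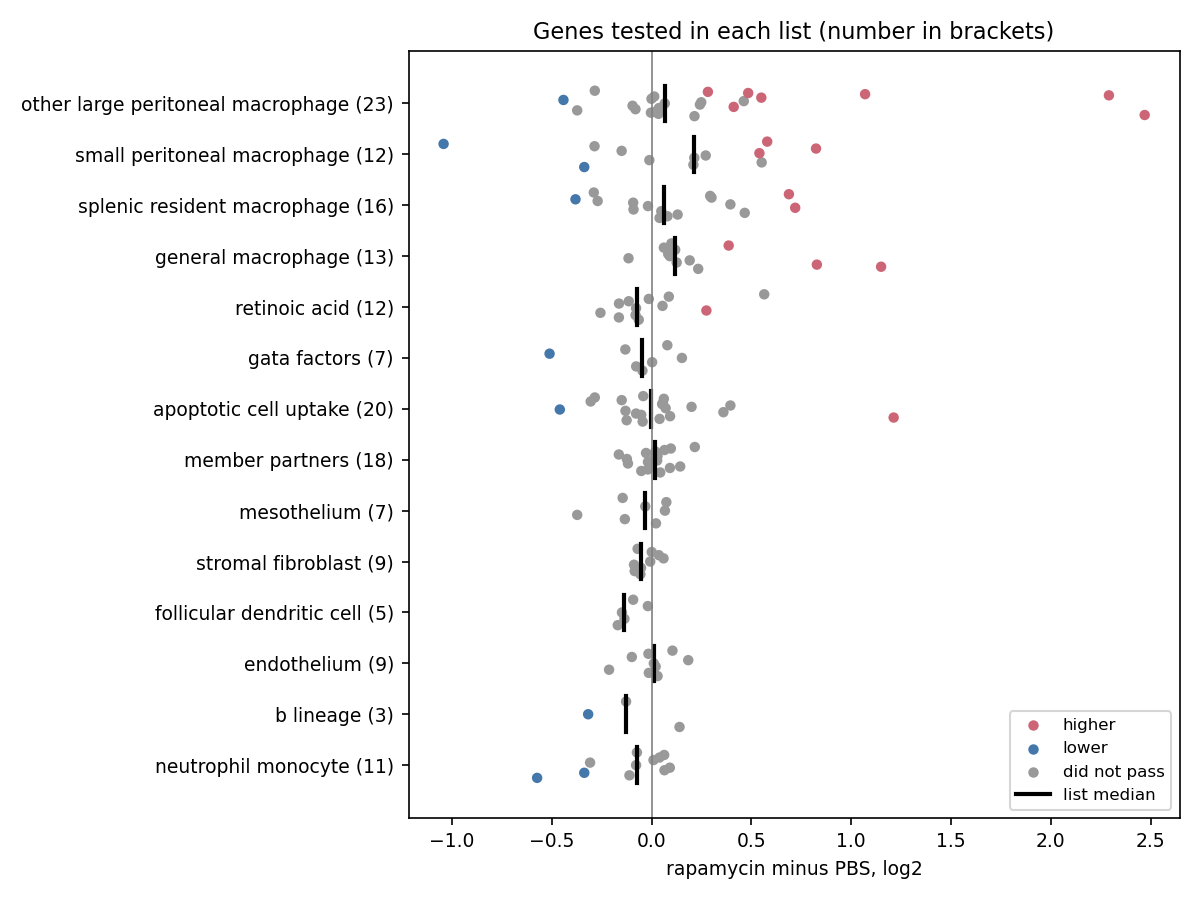
Rapamycin minus PBS (log2) for each tested gene of the 14 lists, with black bars at list medians and the number tested in brackets. The Alox15 and Saa3 points lie beyond 2 on the top line, the fibroblast genes lie between -0.09 and 0.06, the endothelium genes between -0.21 and 0.18, and Krt8 of mesothelium stands at -0.37.

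The genes whose profile over the 6 arrays came nearest to that of Prg4 were ranked by the root mean square difference of log2 values, each gene centred on its own mean. Alox15 was nearest among 13964 genes, at 0.32. The eosinophil-associated ribonuclease Rnase2a followed at 0.34, Saa3 at 0.53 and the macrophage elastase Mmp12 at 0.53. The metallothionein Mt2 (0.80) and the complement component C4b (0.82) were next. Alox15 read 7.17, 8.14 and 7.37 with PBS and 9.60, 10.25 and 10.24 with rapamycin. PBS mouse 2 was the highest and rapamycin mouse 1 the lowest of its group, as for Prg4, in a gene picked for its nearness. The measure is not scaled, so a large rise with rapamycin by itself brings a gene near to Prg4.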

How the data were processed

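The deposited table holds the authors' log2 signal of every probe set, from RMA in Affymetrix Expression Console per the submitters' processing notes, with versions not stated there. RMA brings the arrays' distributions close together, so a shift of most genes one way would be largely removed. The deposited array medians still ran from 5.419 to 5.430 with PBS and from 5.442 to 5.455 with rapamycin. Of 35556 probe sets, 21789 have 1 symbol in GEO's 2016 platform annotation. Each gene was represented by its brightest probe set over the 6 arrays. A brightness threshold at the 30th percentile (log2 4.72) set dim genes aside, which left 13965 of 19938.

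Limma 3.58.1, run in R 4.3.3, compared the groups (lmFit, eBayes, 2-sided, Benjamini-Hochberg over all genes tested, called at an adjusted p under 0.05), with limma's SE. Tested on simulated data of 13965 genes, it recovered 24 of 50 changes at a log2 change of 0.3 and 50 of 50 at 0.6. At a change of 1 it recovered 49 of 50, and 12 of all 185 calls were false. The simulated noise was independent between genes and drawn from limma's own variances, so it does not give the recovery in the real arrays. There, Kcnma1 differed by 0.66 and did not pass (limma adjusted p 0.184). The members and 14 lists were chosen with earlier results of these data known. Named were the members, up to 6 called genes per list, the brightest marker of other cell types, genes of lists with under 15 measured, and the 6 genes nearest to Prg4. Other genes were named after their values were seen. Alternatives covered filter, scaling, probe sets, variance model, array weights, replicate block and each array left out.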

Additional observations from a re-analysis of the deposited data

How the results depend on the processing

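The 8 member differences kept their direction in all settings run, except Rarb, which was 0 without rapamycin replicate 1. The filters, the mean of probe sets and the replicate block could not change these differences. The members were also chosen on this contrast, so the kept direction is a description. The median of the 8 ran from 0.38 to 0.58 and the non-overlapping members from 4 to 5 with an array left out. Genes called ran from 52 to 561 higher and from 61 to 775 lower, other large peritoneal macrophage genes from 3 to 6 higher and from 0 to 2 lower, and genes of the 13 other lists from 1 to 10 higher and from 1 to 5 lower. The main counts were 617 and 967, 7 and 1, and 10 and 7. Large peritoneal macrophage genes called lower became 2, Cd9 joining Klf2, with the 50th percentile filter, quantile normalization again, array medians aligned, intensity trend or array weights.

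The labels do not say whether replicate numbers pair the mice (deviations of same-numbered mice correlated at 0.26, 0.0100 and 0.046 across genes). With the replicate block the large peritoneal macrophage genes called were 9 higher and 3 lower, and those of the other lists 17 higher and 10 lower. The added higher genes included Icam2 (limma adjusted p 0.0495), Itga6 (0.0180) and Tgm2 (0.00602). H2-Aa (0.0494), H2-Ab1 (0.0220), Cd74 (0.0497) and Ciita (0.00497) were also among them. The added lower genes included Thbs1, Cd9, Scarf1 and Krt8. Quantile normalization again gave 12 lower in the other lists. With no filter, Tgfb2, Ccr2, Retnla and Tlr4 lost their calls. The causes were not tested.

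The share of lower genes among all calls was 61.0%. It was 44.7% (875 higher, 707 lower) with the medians of the genes tested aligned, a setting chosen after seeing the data, and 71.0% (548 and 1341) with the medians of all probe sets aligned. The means of Vsig4 and Rarb and the PBS mean of Cxcl13 lie under the brightness threshold, where differences can be compressed. Whether they were compressed here was not tested.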

Other observations

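The genes nearest in profile to Vsig4 were looked for after its values were seen, with the same measure of nearness as for Prg4, over 13965 genes. The nearest was Ltc4s, the leukotriene C4 synthase, at 0.14, with 6.06, 6.75 and 6.35 with PBS and 6.10, 6.95 and 6.90 with rapamycin. Pmp22 followed at 0.20 and arginase 1, Arg1, at 0.26, with Arg1 at 7.72, 9.01 and 7.51 against 7.51, 8.52 and 8.45. Fcna (0.28), the carbonic anhydrase Car6 (0.28) and Itga6 (0.28) were next, of which Fcna and Itga6 are in the list of large peritoneal macrophage genes. In all of these 6, which were picked for their nearness, PBS mouse 2 was the highest PBS mouse and rapamycin mouse 1 the lowest rapamycin mouse. Not all resident macrophage genes ordered the mice in this way: Spic, Axl and Mertk were highest in PBS mouse 1 among the PBS mice, and Hmox1 was highest in rapamycin mouse 1 among the rapamycin mice. None of the 6 was called between the groups by limma, with adjusted p from 0.0776 for Itga6 to 0.926 for Arg1.

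PBS mouse 2 was the highest of its group for 13 of the 23 other large peritoneal macrophage genes tested (56.5%), and for 28.6% of all genes tested. This is a count over genes of the same 3 mice, with no test.

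Timd4, Cd93 and Cxcl13 were searched in the same way, also after their values were seen. For Timd4 the nearest genes were Trf (0.16), the arginine transporter Slc7a2 (0.17), Krtap10-10 (0.17), the potassium channel gene Kcnma1 (0.18), Itga6 (0.19) and Ltbp1 (0.20). For Cd93 the nearest was Retnla, at 0.051, and for Cxcl13 no gene came closer than Cyp4f16, at 0.54. Since the measure is not scaled, these distances cannot be compared between members. The PBS values of Retnla (4.86 to 4.87) lay close above the brightness threshold.

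Identical deposited values on different arrays were common. At least 1 value was shared by 2 or more arrays for 36.8% of the genes tested and for 61.4% of those set aside as dim. At most 2 distinct values over the 6 arrays, as for Rarb, were found for 0.695% and 2.34%. How these repeats arose was not tested.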
